A study of Homo sapiens with 6 samples.

Results

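The BCL2 family decides whether a cell keeps its mitochondria intact or lets them release the proteins that start apoptosis. Of the 20289 genes in the deposited expression table, 10 are described here, found by their symbols: the pro-survival genes BCL2, BCL2L1, BCL2L2, MCL1 and BCL2A1, and the pro-death genes BAK1, BCL2L11, BID, BIK and BMF. All 10 had a row and all 10 passed the filter on low counts. BIK and BCL2A1 would not have passed it in the Vector-labelled libraries alone, so their place in the test, and with it their direction, is tied to their level under the other label.

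Pro-survival members hold the effectors BAK and BAX, and the BH3-only activators, in a groove on their surface. BH3-only proteins such as BIM (from BCL2L11), BID, BIK and BMF insert a short helix, the BH3 motif, into that groove. When the grooves are filled, the effectors form pores in the outer mitochondrial membrane, cytochrome c escapes and caspases are activated. In urothelial cancer the family is known chiefly through BCL-xL (from BCL2L1) and MCL1, the main survival proteins of many carcinomas.

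RNA was sequenced from 6 libraries labelled as T24, an established human bladder cancer line. In 3 of them the cells are labelled as transfected with a pcDNA3.1 plasmid that carries LINC00665, a long non-coding RNA, and in the other 3 as transfected with the vector plasmid (Vector). All 6 cultures had the same medium with serum and the same lipofection reagent; the time between transfection and harvest is not given in the sources used here. The labels name 3 independent experiments, and p-values measure the spread between those libraries.

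Expected counts summed to 19114096 to 22725687 in LINC00665-labelled and 17289788 to 20023417 in Vector-labelled libraries. No row of the table is LINC00665, so its overexpression was not checked. Of 11 urothelial and epithelial markers, 1 lay under 1 CPM (expected counts scaled to a common library total) on average in LINC00665-labelled libraries and 9 in Vector-labelled ones, with summed levels of 4411 to 5348 CPM against 4.22 to 4.69 CPM; KRT14 and UPK3A were at 0 counts under the Vector label. The renal list ran the other way, at 30.5 to 33.9 CPM summed in LINC00665-labelled and 403 to 503 CPM in Vector-labelled libraries, although its member LHX1 was higher under the LINC00665 label. Fibroblast markers summed to 76.4 to 90.9 CPM in LINC00665-labelled and 1.81 to 3.05 CPM in Vector-labelled libraries, and endothelial markers to 10.5 to 12.6 CPM and 0.300 to 1.10 CPM in the same order of labels. The markers of the Vector-labelled libraries therefore go against a bladder line. These lists describe tissues and not a single line, so T24 identity was not checked for the LINC00665-labelled libraries either. The identity of the cells and the plasmid cannot be told apart in any difference given here. No result can be given without the Vector-labelled libraries, because no comparison would be left. The part of these markers in the results was not tested. In bulk RNA, fewer cells of a type and less RNA per cell cannot be told apart either.

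The sequence that defines the family is shown first, as the coding bases around the core of the BH3 motif in 8 members. The GENCODE v29 principal transcript of each member (GRCh38) was translated and searched for leucine, any 3 residues, glycine or alanine, and aspartate. It occurred once in each of these 8 and not in BCL2L2 and BCL2A1, which says only that these letters are not there. Capitals mark the codons of the leucine and the aspartate. The core is present in members of both camps, and neighbouring bases differ at most positions.
BCL2: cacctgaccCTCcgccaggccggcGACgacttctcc
BCL2L1: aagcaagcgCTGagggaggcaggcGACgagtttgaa
MCL1: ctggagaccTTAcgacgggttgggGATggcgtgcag
BAK1: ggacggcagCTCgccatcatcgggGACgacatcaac
BCL2L11: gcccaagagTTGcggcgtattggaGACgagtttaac
BID: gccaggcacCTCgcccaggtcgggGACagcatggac
BIK: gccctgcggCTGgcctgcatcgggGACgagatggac
BMF: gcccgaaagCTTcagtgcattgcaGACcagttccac

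The single comparison of the design asks what differs between cells given LINC00665 and cells given the vector. Of the 10 members, 6 rose and 2 fell under the LINC00665 label (edgeR quasi-likelihood, 13552 genes, threshold 0.05 on the p adjusted by Benjamini-Hochberg). That test called 63.5% of all tested genes, 34.2% higher and 29.3% lower, so a count of 8 in 10 is to be read against a background in which most genes differed. The rises were in BIK, BCL2A1, BMF, BCL2L1, BCL2L11 and BID and the falls in BCL2 and BAK1. MCL1 and BCL2L2 did not pass. Of the called members, 5 differed by 1 or more on the log2 scale in either direction (BIK, BCL2A1, BMF, BCL2L1 and BCL2L11), beside 42% of all tested genes. The median log2 fold change was 1.10 over the members and 0.03 over all tested genes. CPM of the 3 libraries of one label lay wholly above those of the other for 7 of the 10 members, beside 71.3% of all tested genes. Among the 8 members at 1 CPM or more in all 6 libraries, 4 rose and 2 fell. Without BIK and BCL2A1 the median was 0.76.

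**Figure D1:**
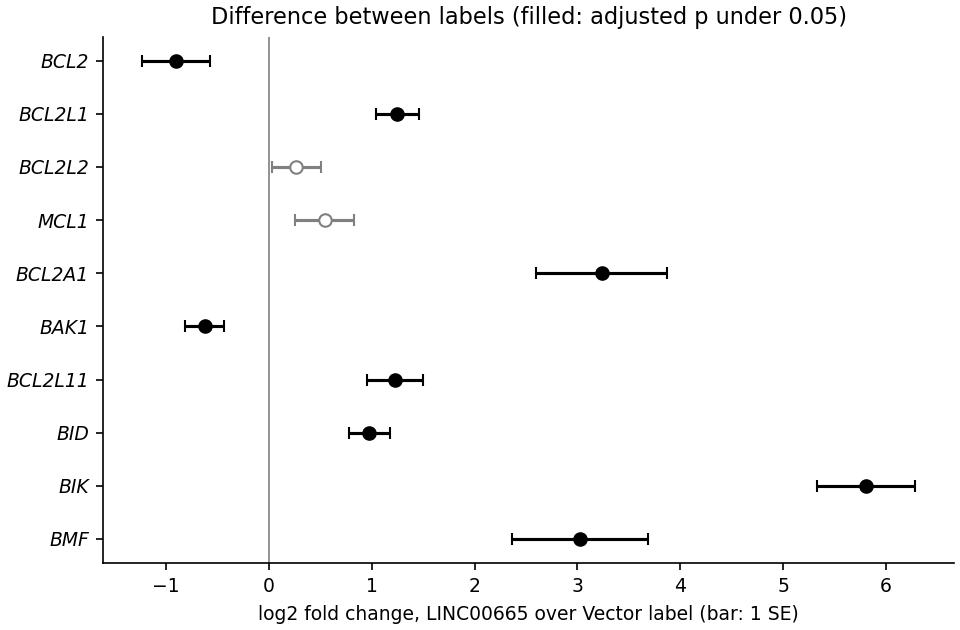
Log2 fold change of each member, LINC00665 over Vector label, from edgeR, with bars of 1 standard error (3 libraries per label). Filled points passed an adjusted p of 0.05: BIK, at 5.81, lies farthest to the right, BCL2 and BAK1 lie left of 0, and the open points are BCL2L2 and MCL1.

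Among the pro-survival genes, BCL2L1 and BCL2A1 rose, BCL2 fell, and MCL1 and BCL2L2 did not pass. BCL2L1 (chromosome 20, 31664452 to 31723989, minus strand, GRCh38) encodes BCL-xL and, by splicing, a shorter pro-death form that a gene-level value cannot separate. It had 452, 439 and 496 CPM in the LINC00665-labelled libraries, against 201, 284 and 167 CPM in the Vector-labelled ones. The labels did not overlap, and the log2 fold change was 1.25 (SE 0.21, edgeR adjusted p = 0.00098). The call held without each library in turn.

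BCL2A1 (chromosome 15, 79960889 to 79971446, minus strand) encodes BFL-1, a short-lived survival protein known mainly from blood cells and as a target of NF-kB. It reached 7.26, 10.1 and 6.17 CPM in LINC00665-labelled libraries, against 0.749, 0.116 and 1.92 CPM in Vector-labelled ones, which rest on 15, 2 and 35 counts. Every LINC00665-labelled library was above every Vector-labelled one, and the log2 difference was 3.24 (SE 0.64, edgeR adjusted p = 0.0023). Without Vector 3, the highest of its label, the value was 4.28. Leukocyte markers were at 25.6 to 35.6 CPM summed over the list in LINC00665-labelled and 11.2 to 18.1 CPM in Vector-labelled libraries; 5 and 7 of the 8 markers averaged under 1 CPM. PTPRC, the defining one, had 0 counts in LINC00665-labelled and 1 count in Vector-labelled libraries. CD14 (304 and 16 counts), CSF1R (65 and 0 counts) and CD68 (1444 and 811 counts) were called higher under the LINC00665 label, and their part in the BCL2A1 result was not tested.

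MCL1 (chromosome 1, 150574551 to 150579738, minus strand) encodes a protein that turns over within minutes to hours and is marked for breakdown by ubiquitin ligases. It had 484, 496 and 408 CPM in LINC00665-labelled libraries, against 322, 225 and 524 CPM in Vector-labelled ones. Vector 3 was above all 3 LINC00665-labelled libraries and Vector 2 was the lowest of the 6. The log2 fold change was 0.54 with a 95% interval of -0.11 to 1.19 (edgeR adjusted p = 0.13). Without Vector 3 it was 0.92 and passed (adjusted p = 0.0031), so 1 library decides this call.

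BCL2L2 (chromosome 14, 23298790 to 23311759, plus strand) encodes BCL-w, a relative of BCL-xL. It had 43.2, 38.6 and 42.9 CPM in LINC00665-labelled libraries, against 33.1, 28.2 and 54.7 CPM in Vector-labelled ones. Again Vector 3 was the highest of all 6 libraries. The log2 fold change was 0.27 (95% interval -0.29 to 0.82, edgeR adjusted p = 0.36), and without Vector 3 it was 0.60 (adjusted p = 0.0069). The table also holds the readthrough gene BCL2L2-PABPN1 on the same strand and the genes HOMEZ and PPP1R3E on the other, so the counts of BCL2L2 are uncertain; the readthrough averaged 15.1 CPM under both labels.

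BCL2 (chromosome 18, 63123346 to 63320128, minus strand), the founding member, was the least abundant survival gene under the LINC00665 label. It had 7.26, 4.34 and 5.39 CPM in LINC00665-labelled libraries, against 12.9, 6.88 and 15.8 CPM in Vector-labelled ones. LINC00665 1 and Vector 2 overlapped. The log2 fold change was -0.90 (SE 0.33, edgeR adjusted p = 0.040), and the call was lost without LINC00665 2 (0.13), LINC00665 3 (0.11), Vector 1 (0.10) or Vector 3 (0.10), and with limma-voom. On the deposited FPKM (fragment values normalised for gene length and depth) the labels stood apart by a narrow gap, at 0.66 to 1.38 and 1.39 to 2.23.

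The BH3-only genes BIK, BMF, BCL2L11 and BID rose and the effector gene BAK1 fell. All 5 pro-death genes thus passed, beside 63.5% of all tested genes, and BIK entered the test only through the LINC00665-labelled libraries. Their CPM did not overlap between labels, as was the case for 71.3% of all tested genes. BIK (chromosome 22, 43110748 to 43129712, plus strand) encodes a BH3-only protein of the endoplasmic reticulum. It had 31.3, 55.5 and 36.0 CPM in LINC00665-labelled libraries, against 0.300, 0.752 and 1.43 CPM in Vector-labelled ones, which rest on 6, 13 and 26 counts. Its mean was 49.6 times higher under the LINC00665 label, and the fitted rise was 5.81 on the log2 scale (SE 0.48, edgeR adjusted p = 1.9e-05), the largest of the 10 members. It was 6.47 without Vector 3.

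BMF (chromosome 15, 40087890 to 40108892, minus strand) encodes a BH3-only protein that is held on the cytoskeleton through a dynein light chain. It had 50.6, 53.9 and 48.9 CPM in LINC00665-labelled libraries, against 2.80, 15.8 and 2.41 CPM in Vector-labelled ones. The 3 LINC00665-labelled libraries lay close together, while Vector 2 was far above the other Vector-labelled libraries and still below every LINC00665-labelled one. The log2 fold change was 3.03 (SE 0.66, edgeR adjusted p = 0.0042). Without Vector 2 it was 4.46 (adjusted p = 8.2e-07).

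BCL2L11 (chromosome 2, 111119378 to 111168447, plus strand) encodes BIM, which binds every pro-survival member and can activate the effectors directly. It had 53.8, 56.3 and 54.8 CPM in LINC00665-labelled libraries, against 17.9, 37.9 and 23.0 CPM in Vector-labelled ones. The labels did not overlap, and BCL2L11 rose by 1.23 on the log2 scale (SE 0.27, edgeR adjusted p = 0.0043). GENCODE v29 lists 17 protein-coding transcripts for this gene, whose products differ in killing activity, and the table gives their sum.

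BID (chromosome 22, 17734138 to 17774770, minus strand) links death receptors to mitochondria, since caspase-8 cleaves it into its active form. It had 68.1, 99.4 and 79.1 CPM in LINC00665-labelled libraries, against 38.8, 50.5 and 51.2 CPM in Vector-labelled ones. Every LINC00665-labelled library was the higher, and BID rose by 0.98 on the log2 scale (SE 0.20, edgeR adjusted p = 0.0030).

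BAK1 (chromosome 6, 33572547 to 33580293, minus strand) encodes BAK, an effector that sits in the outer mitochondrial membrane. It had 37.2, 39.1 and 39.0 CPM in LINC00665-labelled libraries, against 49.8, 76.5 and 72.3 CPM in Vector-labelled ones. The log2 fold change was -0.62 (SE 0.19, edgeR adjusted p = 0.019). The call was lost without LINC00665 1 (0.071) or LINC00665 3 (0.054), with log2 fold changes of -0.60 and -0.63.

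**Figure D2:**
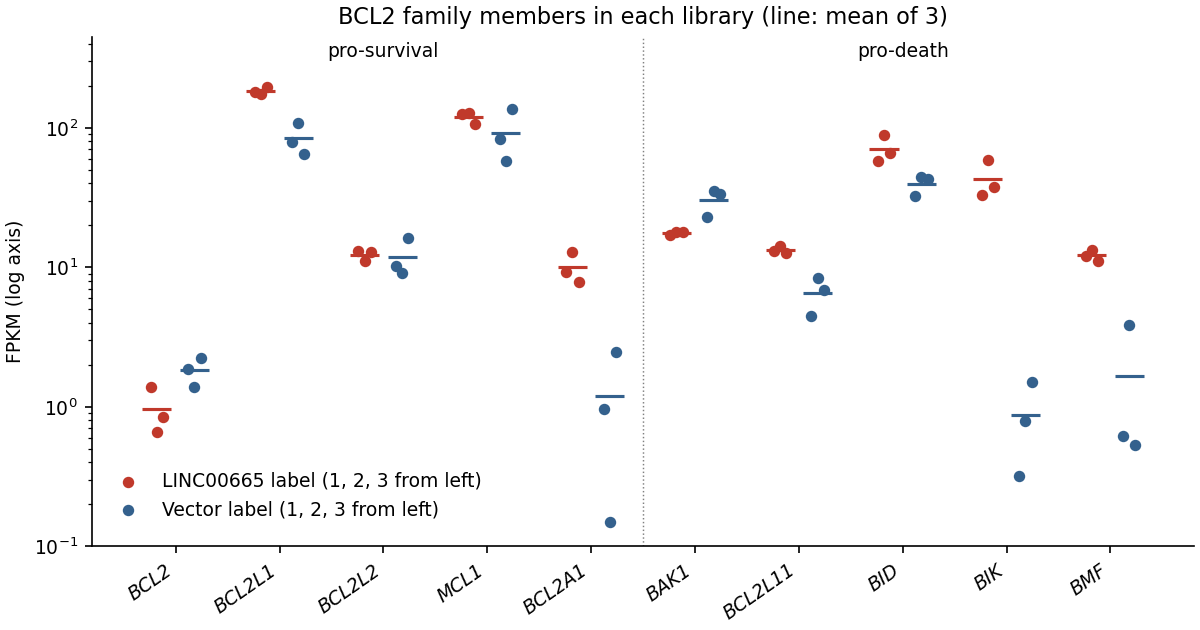
FPKM of each member in each library on a log axis; points are libraries 1 to 3 from left, LINC00665 label left of Vector label, and lines are means of 3. BIK, BMF and BCL2A1 show the widest gaps, and the Vector-labelled points of BMF and BCL2A1 are spread over a wide range.

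Replicates differed far more under one label than the other. The coefficient of variation of CPM ran from 2.30 to 31.3% over the members in LINC00665-labelled libraries and from 14.9 to 109% in Vector-labelled ones. It was larger under the Vector label for 9 of the 10 members, BID being the exception. The biological coefficient of variation that edgeR estimated over all tested genes was 12.8% in LINC00665-labelled and 28.6% in Vector-labelled libraries, so the members share this with the rest of the table. The Vector-labelled libraries did not differ in one way: Vector 3 had the most MCL1, BCL2L2, BCL2, BCL2A1, BID and BIK of its label, and Vector 2 the most BCL2L1, BCL2L11, BMF and BAK1.

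Levels of different genes were set side by side per length, on FPKM. In LINC00665-labelled libraries BCL2L1 stood first at 184 ± 10.2 FPKM (SD, n = 3), above MCL1 at 120 ± 12.4 FPKM with no overlap. BID followed at 71.1 ± 16.0 and BIK at 43.1 ± 13.5 FPKM, which overlapped each other, and then BAK1 at 17.7 ± 0.486 FPKM. BCL2L11, BCL2L2, BMF and BCL2A1 lay between 10.0 and 13.3 FPKM on average, each overlapping its neighbour in the order, and BCL2 was last at 0.963 ± 0.373 FPKM.

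The order was different in Vector-labelled libraries. MCL1 at 92.2 ± 39.6 FPKM and BCL2L1 at 84.4 ± 22.4 FPKM (SD, n = 3) came first and overlapped. BID at 39.7 ± 6.31 and BAK1 at 30.5 ± 6.60 FPKM overlapped as well, and BCL2L2 at 11.8 ± 3.80 and BCL2L11 at 6.58 ± 1.99 FPKM came next. BCL2, BMF, BCL2A1 and BIK closed the order at means of 1.83, 1.67, 1.19 and 0.870 FPKM, each overlapping the next. BIK ranked 4 of 10 under the LINC00665 label and was last under the Vector label.

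The survival pool, the summed FPKM of the 5 pro-survival genes, was made almost wholly of BCL2L1 and MCL1 under both labels. The sum was 331, 329 and 323 FPKM in LINC00665-labelled libraries, against 175, 178 and 222 FPKM in Vector-labelled ones, with no overlap. BCL2L1 held 54.7, 53.5 and 60.6% of the pool in LINC00665-labelled libraries, against 45.1, 61.4 and 29.5% in Vector-labelled ones. These shares overlapped (exact permutation p = 0.4, two-sided, n = 3 per label). The BCL2L1 to MCL1 ratio was 1.44, 1.37 and 1.85 in LINC00665-labelled libraries, against 0.950, 1.88 and 0.482 in Vector-labelled ones: BCL2L1 exceeded MCL1 in every LINC00665-labelled library and in Vector 2 of the others.

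The shares of the minor survival genes were compared as well. BCL2A1 made up 3.06 ± 0.776% of the pool under the LINC00665 label and 0.580 ± 0.511% under the Vector label (SD, n = 3 each). BCL2L2 made up 3.75 ± 0.345% and 6.08 ± 1.11%, and BCL2 0.293 ± 0.111% and 0.951 ± 0.148%, in the same order of labels. Shares depend on the whole sum: BCL2L2 itself averaged 12.3 FPKM under the LINC00665 label and 11.8 FPKM under the Vector label. BCL2A1 passed the filter only through the LINC00665-labelled libraries. None of the shares of these 3 genes overlapped between labels. Each gave an exact two-sided permutation p of 0.1 (n = 3 per label), the smallest that 3 against 3 libraries allow, and 0.15 after Benjamini-Hochberg adjustment over the 16 sums, shares and ratios computed.

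**Figure D3:**
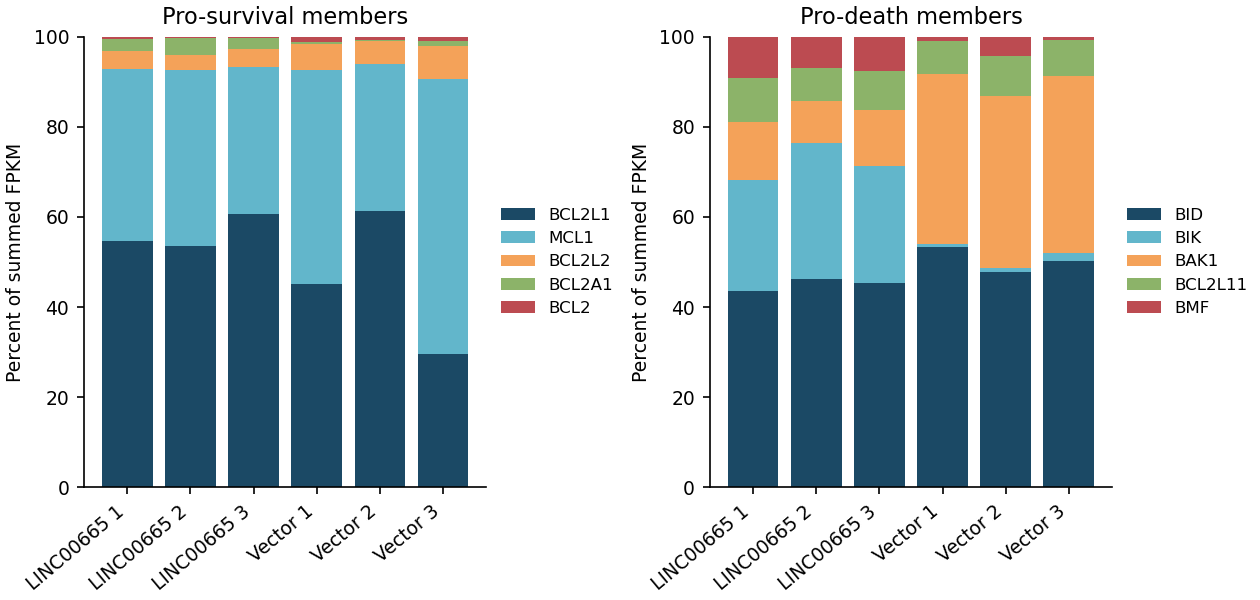
Share of each gene in the summed FPKM of the 5 pro-survival (left) and 5 pro-death (right) members, 1 bar per library. BIK takes 24.7 to 30.3% of the pro-death sum in LINC00665-labelled libraries and 0.526 to 1.77% in Vector-labelled ones, where BAK1 takes 37.7 to 39.2%.

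The make-up of the pro-death genes was compared in the same way. BIK made up 24.7, 30.3 and 26.0% of their summed FPKM in LINC00665-labelled libraries, against 0.526, 0.855 and 1.77% in Vector-labelled ones. BAK1 made up 12.9, 9.35 and 12.3% in LINC00665-labelled libraries, against 37.7, 38.2 and 39.2% in Vector-labelled ones. BID was the largest part under both labels, at 45.0 ± 1.31% and 50.5 ± 2.84% (SD, n = 3 each), and BCL2L11 held 8.59 ± 1.22% and 8.17 ± 0.892%, which overlapped. The exact two-sided permutation p was 0.1 for BIK, BAK1, BID and BMF and 0.7 for BCL2L11 (n = 3 per label). For BIK, BAK1, BID and BMF it was 0.15 after Benjamini-Hochberg adjustment. Shares of one sum are tied to each other, and BIK passed the filter only through the LINC00665-labelled libraries. Whether this make-up changed more than that of the survival pool was not tested.

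The summed pro-death genes stood at 133, 193 and 146 FPKM in LINC00665-labelled libraries, against 60.9, 92.4 and 84.8 FPKM in Vector-labelled ones. Their ratio to the survival pool was 0.402, 0.586 and 0.451 under the LINC00665 label, against 0.348, 0.520 and 0.383 under the Vector label. The ratios overlapped (exact two-sided permutation p = 0.5, n = 3 per label), so with both sums higher no difference in this transcript ratio was detectable with 3 libraries.

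Sequence upstream of the transcription start was available from RefSeq (GRCh38.p14) for 7 of the 10 members; BIK, MCL1 and BCL2L2 were the others. The 250 bases before each start were searched on both strands for 4 motifs. The FOXO letters were GTAAACA. The TATA box was TATAAA, and the AP-1 letters were TGANTCA. The kappaB consensus is given by name. Those of BCL2L11 and BCL2L1 are shown as 2 examples of genes that rose and have a match outside annotated exons, in capitals: the FOXO letters for BCL2L11 (chr2:111120664-111120913, plus strand) and the TATA letters at 2 places for BCL2L1 (chr20:31723990-31724213, minus strand, cut where an annotated exon begins).
BCL2L11: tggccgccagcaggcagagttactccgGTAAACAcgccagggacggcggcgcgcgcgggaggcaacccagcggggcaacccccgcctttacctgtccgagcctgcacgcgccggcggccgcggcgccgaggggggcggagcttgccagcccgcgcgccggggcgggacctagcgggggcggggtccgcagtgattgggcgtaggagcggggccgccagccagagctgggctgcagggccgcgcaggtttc
BCL2L1: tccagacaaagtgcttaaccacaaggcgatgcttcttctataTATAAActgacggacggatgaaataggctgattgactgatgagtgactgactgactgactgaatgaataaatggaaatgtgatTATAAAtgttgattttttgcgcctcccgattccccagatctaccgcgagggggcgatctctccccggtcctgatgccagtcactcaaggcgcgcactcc
The FOXO letters occur in 2.98% and the TATA letters in 10.8% of the 34943 upstream windows in the same table. A second window of BCL2L1 held no match and lies wholly in annotated exons. BMF, which rose too, held a kappaB match, a pattern in 9.95% of windows, at bases -20 to -11 from the start. The 13 bases of that window next to the start are in an annotated exon, and the match runs into them. Another window of BMF, inside the gene, held no match, and the bases just after its start were in none of the gene's GENCODE transcripts. BCL2A1 held the TATA letters in a window that lies wholly in an annotated GENCODE exon. The AP-1 letters, in 6.59% of windows, matched in none of the 7 members. No motif matched in any window of BID, which rose, or of BAK1 and BCL2, which fell. A match is a description of the letters, not a site in use. The BCL2L11 window is 76.8% G and C, against a median of 58% over all windows. It lies inside the GENCODE gene, which begins at 111119378, and so precedes an internal start.

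Most of the listed transcription factors known to act on family genes rose. Of 20 listed, 19 were tested, 13 rose and 0 fell, with a median log2 fold change of 0.90 beside 0.03 over all genes; 34.2% of all tested genes rose and 29.3% fell, which is the background for each list. TP63 passed the filter only through the LINC00665-labelled libraries; without it 12 of 18 rose. Among those with the smallest p were TP63 (log2 fold change 10.23, on 5 counts in all under the Vector label), STAT5A (4.91) and DDIT3 (3.24), the stress factor CHOP that can induce BIM. TP63 is also one of the urothelial markers above. FOXO1, FOXO3 and FOXO4, which are known to act on BCL2L11, passed; FOXO3 rose by 0.87 and FOXO4 by 1.43 on the log2 scale, and FOXO1 averaged 45.7 ± 1.33 CPM under the LINC00665 label and 18.1 ± 7.41 CPM under the Vector label (SD, n = 3 each). Of the NF-kB genes, RELA (0.90) passed and held its call without each library, whereas RELB (0.10, adjusted p = 0.82) and NFKB2 (0.36, adjusted p = 0.40) did not pass, and passed without Vector 3 (0.65 and 0.87). NFKB1 (1.05) and REL (0.78) passed, and each lost its call without either of a pair of libraries: NFKB1 without LINC00665 1 (0.051) or LINC00665 2 (0.063), and REL without LINC00665 1 (0.071) or LINC00665 3 (0.052). MITF (-0.51) did not pass, and passed as lower without Vector 3 (-0.62). The FOXO and NF-kB genes and MITF were named after their values were seen.

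**Figure D4:**
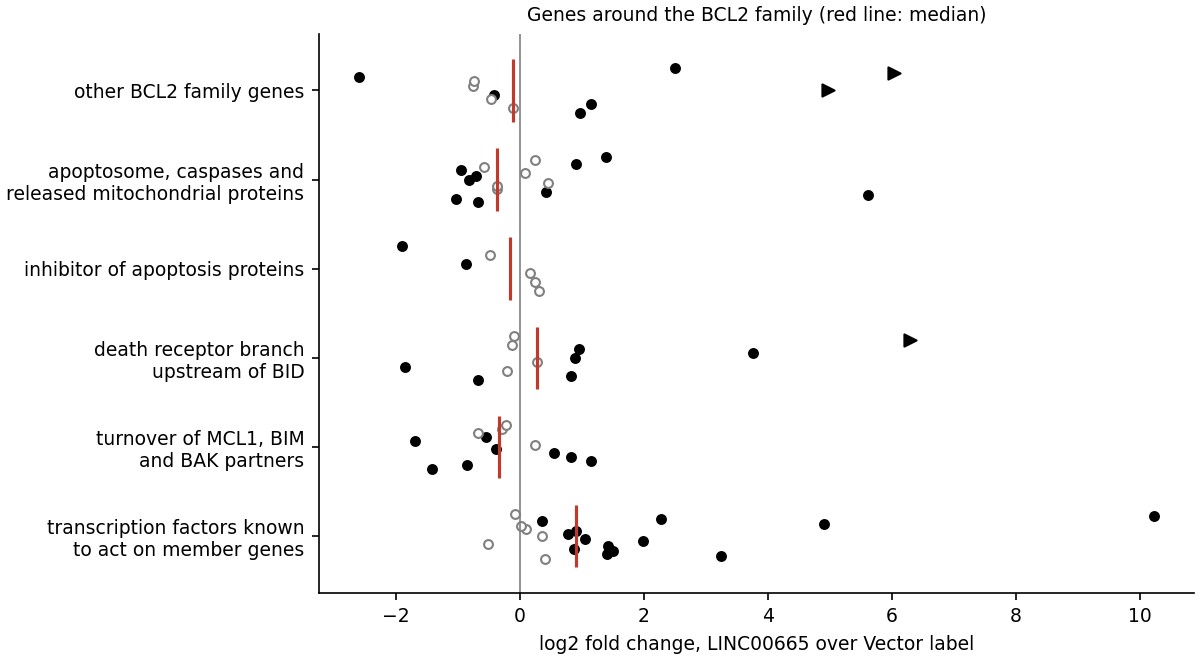
Log2 fold change, LINC00665 over Vector label, of every tested gene in 6 lists around the BCL2 family. Filled points passed an adjusted p of 0.05 by edgeR, triangles are lower bounds for genes at 0 counts under the Vector label, and red lines are medians, from -0.36 to 0.90.

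Of 13 other family members, 11 were tested, 5 rose and 2 fell, beside 34.2% and 29.3% of all tested genes. HRK and BCL2L14 passed the filter only through the LINC00665-labelled libraries; without them 3 of 9 rose and 2 fell. The median log2 fold change of the 11 was -0.11. It was -0.10 and -0.15 without LINC00665 2 and LINC00665 3, where 11 genes were tested. Where 12 genes passed the filter it was positive: 0.47 without LINC00665 1 and 0.43, 0.53 and 0.35 without Vector 1, Vector 2 and Vector 3. With 1 library left out, the sign thus changed only where the set of tested genes changed. Without Vector 3, 6 rose and 4 fell. BAX, the second effector, had 43.1 ± 2.56 CPM under the LINC00665 label and 51.9 ± 13.3 CPM under the Vector label (SD, n = 3 each), a log2 fold change of -0.11 that did not pass (edgeR adjusted p = 0.67). BOK, a BAX-like relative, fell to 10.2 ± 1.28 CPM under the LINC00665 label, against 69.4 ± 19.8 CPM under the Vector label (log2 fold change -2.60, SE 0.24, adjusted p = 3.4e-05). PMAIP1, which encodes the MCL1-binding BH3-only protein NOXA, rose to 164 ± 6.89 CPM under the LINC00665 label, against 32.3 ± 15.9 CPM under the Vector label (2.51, SE 0.31, adjusted p = 0.00019).

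Among the remaining BH3-only genes, BAD rose (log2 fold change 0.96, edgeR adjusted p = 0.0023). BBC3, which encodes PUMA, rose as well (1.15, adjusted p = 0.028), a call lost without LINC00665 2 (0.12), Vector 1 (0.086) or Vector 2 (0.059). HRK and BCL2L14 had 0 counts under the Vector label and were at least 65.9-fold and at least 31.5-fold higher under the LINC00665 label, at 3.56 and 1.70 CPM, with 3 counts over the group taken as the limit. BCL2L13 fell by 0.42 on the log2 scale (adjusted p = 0.021), a call lost without LINC00665 1 (0.065) or LINC00665 3 (0.070). BNIP3 (-0.75), BNIP3L (-0.74) and BCL2L12 (-0.47) did not pass; the first pair passed without Vector 3 and BCL2L12 without Vector 2 (-1.03, -1.07 and -0.55). BCL2L10 and BCL2L15 were not tested.

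Downstream of the mitochondria, 4 of 15 genes for the apoptosome, caspases and released proteins rose and 5 fell, shares near those over all tested genes (34.2% and 29.3%). CASP10 passed the filter only through the LINC00665-labelled libraries; without it 3 of 14 rose. The median log2 fold change was -0.36, or -0.18 without Vector 3, and without LINC00665 1 the calls were 3 higher and 3 lower. CASP10, a death receptor caspase, had 24.2 ± 2.45 CPM under the LINC00665 label and 0.551 ± 0.452 CPM under the Vector label (SD, n = 3 each), a log2 fold change of 5.62, or 6.48 without Vector 3. HTRA2 and DIABLO, proteins released from mitochondria that bind the inhibitors of apoptosis, rose by 1.39 and 0.90 on the log2 scale. DFFA, the inhibitor of the caspase-activated nuclease, fell by 0.95, and CASP8 and CASP9, which start the receptor and the mitochondrial cascades, fell by 0.82 and 0.70. The call of CASP9 was lost without LINC00665 1 (edgeR adjusted p = 0.056). CASP8 and CASP9 were chosen after their values were seen.

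The inhibitors of apoptosis were tested in 6 cases (median log2 fold change -0.16). Of these, 0 rose and 2 fell, beside 34.2% and 29.3% of all tested genes. XIAP, the direct inhibitor of executioner caspases, had 18.1 ± 7.10 CPM under the LINC00665 label and 74.9 ± 10.0 CPM under the Vector label (SD, n = 3 each), so that XIAP fell by 1.90 on the log2 scale (edgeR adjusted p = 0.00063). BIRC6 fell by 0.86. NAIP (-0.48) and BIRC2 (0.31) did not pass, and both passed without Vector 3 (-0.67 and 0.65), which brought the count to 4.

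In the death receptor branch, whose caspases cleave BID, 5 of 11 tested genes rose and 2 fell, beside 34.2% and 29.3% of all tested genes. TNFSF10 and TNFRSF10C passed the filter only through the LINC00665-labelled libraries; without them 3 of 9 rose and 2 fell, with a median log2 fold change of -0.09. Over the 11 genes the median was 0.27, or 0.14, 0.18 and 0.52 without Vector 1, Vector 2 and Vector 3. RIPK1, a kinase of the receptor complex, fell to 18.3 ± 0.998 CPM under the LINC00665 label, against 73.5 ± 2.18 CPM under the Vector label (SD, n = 3 each; log2 fold change -1.85, edgeR adjusted p = 8.4e-06). The ligand TNFSF10 (TRAIL) had 0 counts under the Vector label and was at least 78.7-fold higher, at 4.25 CPM. The decoy receptor TNFRSF10C (3.76, on 13 counts in all under the Vector label) and the adaptor FADD (0.83) rose. TNFRSF10D rose by 0.95 (edgeR adjusted p = 0.038), with CPM that overlapped between labels. Its call was lost without any single library other than Vector 2.

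Of 12 genes for the turnover or anchoring of MCL1, BIM, BMF and BAK, 3 rose and 5 fell (median log2 fold change -0.34). Of all tested genes, 34.2% rose and 29.3% fell. The 2 dynein light chains, which anchor BIM and BMF, moved apart: DYNLL2 had 163 ± 6.28 CPM under the LINC00665 label and 82.6 ± 14.1 CPM under the Vector label, and DYNLL1 101 ± 12.0 and 204 ± 5.52 CPM in the same order (SD, n = 3 each; log2 fold changes 1.15 and -0.84, edgeR adjusted p = 0.00047 and 0.0013). USP13, a deubiquitinase of MCL1, fell by 1.69 and BTRC, a subunit of an MCL1 ubiquitin ligase, by 1.41. On FPKM the labels overlapped for USP13, at 4.39, 17.46 and 6.91 in LINC00665-labelled libraries against 18.94, 12.65 and 13.46 in Vector-labelled ones. The count of called genes in this list was 5 without LINC00665 1 or LINC00665 3. HUWE1, USP9X and GSK3B lost their calls in both fits. With all libraries their log2 fold changes were -0.39, -0.54 and 0.55. They were -0.43, -0.56 and 0.54 without LINC00665 1, and -0.37, -0.57 and 0.44 without LINC00665 3.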

How the data were processed

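The authors deposited 1 table that pairs, for each gene in each library, an expected count (not normalised) with an FPKM value (per the file headers, scaled for length and depth). HISAT2 2.0.4 and hg38 are named in the submitters' processing notes; how reads were counted, and on which annotation and strand, is not given in the sources used here. Per library, 88.3 to 89.4% of the counts were whole (to within 1e-09).

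Expected counts were rounded, filtered with filterByExpr, scaled by TMM and tested with edgeR 4.0.16 (R 4.3.3) over all 13552 genes passing, with no covariate and a Benjamini-Hochberg threshold of 0.05. Standard errors were derived as the absolute log2 fold change over the root of F. CPM uses each library's total. Shares were compared by exact permutation over libraries. Members and lists were chosen with earlier results of these data known. From each list the other family genes or the 4 genes with the smallest p are named, and further genes were chosen after their values were seen. One listed gene is not reported here. GENCODE v29 held 20171 of the identifiers. Alternatives used other scalings, filters, DESeq2 1.42.0, limma 3.58.1, a replicate block and each library left out. Library pairs of a label differed by 10.2 to 121 in chi-square per degree of freedom, so none was counted as a duplicate. Bounds cover counting error only.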

Additional observations from a re-analysis of the deposited data

How the results depend on the processing

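No member changed direction under any of the 19 alternative fits. The 6 rises were called in every fit except the test against a log2 fold change of 1, which called 3 members (BIK, BMF and BCL2A1) and 4033 genes. It called 4 other family genes, 2 of the apoptosome list, 1 inhibitor of apoptosis, 3 of the death receptor branch, 1 of the turnover list and 6 transcription factors. With one library left out, the counts were 6 to 9 for the members, 2 to 4 for the inhibitors of apoptosis and 5 to 9 for the turnover list. Counting only genes that pass the filter under each label alone, an alternative chosen after seeing the data, moved no count by over 1.5 times. Same-numbered libraries did not deviate together (r = 0.152, -0.132 and -0.154), so the numbers were not taken as pairs; with the replicate block 7924 genes, 8 members and 5 turnover genes were called. Total-count scaling shifted the median of all genes by -0.16 (log2) and called the same number of members. With CPM in place of FPKM, the difference in pool share (LINC00665 minus Vector label) was -1.29 percentage points for BCL2 and 0.665 for BCL2A1, against -0.657 and 2.48 on FPKM. With MCL1 left out of the pool, an alternative chosen after seeing the data, it was -1.46 for BCL2, -6.58 for BCL2L2 and 3.53 for BCL2A1, and the difference in the pro-death to pro-survival ratio was -0.0459, against 0.0629. By definition, CPM is not divided by gene length, and leaving MCL1 out makes the sum smaller and every other share larger. MCL1 held 36.6% of the pool under the LINC00665 label and 47.1% under the Vector label. No further cause of these shifts was tested. Depth limits BIK and BCL2A1, which rest on 45 and 52 counts in all under the Vector label.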

Other observations

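Counts divided by FPKM give the length the authors used for a gene, up to a factor per library. For some members this length was nearly the same in all 6 libraries. The highest was 1.00 times the lowest for BAK1, 1.01 for MCL1, 1.02 for BIK and BCL2A1 and 1.04 for BCL2L1. It was 1.08 times the lowest for BID, 1.12 for BMF and 1.13 for BCL2L2. The length varied more for BCL2L11 (1.35) and BCL2 (1.44). Over 6773 genes with at least 5 FPKM in every library, the median was 1.07 and the 95th percentile 1.40. BCL2L11, BCL2, BMF, BIK and BCL2A1 did not reach that level in every library. For BCL2L11 it stood at 1.03, 0.988 and 1.07 of the mean in LINC00665-labelled libraries and at 0.995, 1.12 and 0.827 in Vector-labelled ones. For BCL2 it stood at 0.857, 1.07 and 1.03 in LINC00665-labelled libraries and at 1.13, 0.806 and 1.16 in Vector-labelled ones. CPM and FPKM therefore do not give the same spread for these 2 genes, and which transcripts lie behind the values was not analysed here.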
